A study of Mus musculus with 5 samples.

Results

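Ccl2, Ccl7, Ccl8, and Ccl12, which encode 4 chemokines, and Ccr2, which encodes the main receptor by which monocytes follow such chemokines, were described in MC38 tumors by cell class and by treatment. They are 5 of the 33696 genes in the tumor matrices, and all 5 had counts. They were chosen by name as a ligand and receptor group, with levels per cell class and treatment from these same reactions already known, so differences between cell classes are given as descriptions with no test. Differences between treatments were tested, but the p-values and counts of genes that passed are not those of genes chosen blind. The rule sets no threshold on any value. MC38 is a transplantable mouse colorectal adenocarcinoma line. Male WT C57BL/6J mice aged 8 to 10 weeks were implanted with MC38 cells under the skin. They were given isotype antibodies, or antibodies to CTLA4 and PD-1 together (CPI), on day 3, day 6, and day 9, then vehicle or 20 mg/kg of the JAK1 inhibitor ABT-317 on day 12, and tumors were taken on day 15. The paper's scRNA-Seq methods count the harvest day from implantation. Its figure legend for the MC38 study counts days from enrollment, once tumors had reached a set volume, so the starting day is not resolved. The 4 groups are isotype, CPI, CPI + ABT-317, and isotype + ABT-317, where isotype and CPI mice received the vehicle. Sorted live CD45+ and CD45- cells were mixed 1:1, and all 4 treatments were pooled in each of 2 droplet reactions after the cells had been tagged by hashtag antibodies. A hashtag names a treatment and no mouse, so each value below is a sum over the cells of 1 treatment in 1 reaction. The p-values measure only the spread between reactions, estimated in part over all genes of a class, and that spread may be technical.

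Monocytes leave the bone marrow and enter inflamed tissue along gradients of chemokines, chiefly ligands of the G protein–coupled receptor CCR2 on their surface. CCL2, also called MCP-1, is the principal CCR2 ligand, CCL7 (MCP-3) binds CCR2 and other receptors, CCL12 (MCP-5) is a mouse CCR2 ligand, and mouse CCL8 (MCP-2) is known to act through CCR8. In tumors the ligands come from macrophages, fibroblasts, and cancer cells, and recruited CCR2+ monocytes become macrophages. JAK1 carries signals from interferon receptors, and several of these chemokine genes are known to respond to interferon or to inflammatory cytokines.

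The ligand genes are neighbors. In RefSeq's GRCm38.p6 annotation, Ccl2 (ENSMUSG00000035385) lies at chr11:82035577-82037452, Ccl7 (ENSMUSG00000035373) at chr11:82045712-82047525, Ccl12 (ENSMUSG00000035352) at chr11:82101845-82103399, and Ccl8 (ENSMUSG00000009185) at chr11:82115185-82116799. The 4 genes span 81223 bases that hold 5 protein-coding genes in the order Ccl2, Ccl7, Ccl11, Ccl12, and Ccl8. Ccr2 (ENSMUSG00000049103) lies apart, at chr9:124101918-124109140. The labels name GRCm38 as the build, but the tumor matrices list a different number of genes from the other matrices of the series, so their own build is uncertain and these coordinates are RefSeq's alone. After CPI, Ccl8 and Ccl12 moved in opposite directions in C1q-high macrophage–like and fibroblast-like cells, though not in every class or cluster. For this reason the 250 bases before the RefSeq start of each are shown. They run 5′ to 3′ on the plus strand, at chr11:82114935-82115184 for Ccl8 and chr11:82101595-82101844 for Ccl12, and capitals mark the motif TATAAA.
Ccl8: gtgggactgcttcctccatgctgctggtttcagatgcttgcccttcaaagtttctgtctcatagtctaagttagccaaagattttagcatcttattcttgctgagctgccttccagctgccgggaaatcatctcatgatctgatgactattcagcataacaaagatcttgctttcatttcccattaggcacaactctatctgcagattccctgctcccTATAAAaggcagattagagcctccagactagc
Ccl12: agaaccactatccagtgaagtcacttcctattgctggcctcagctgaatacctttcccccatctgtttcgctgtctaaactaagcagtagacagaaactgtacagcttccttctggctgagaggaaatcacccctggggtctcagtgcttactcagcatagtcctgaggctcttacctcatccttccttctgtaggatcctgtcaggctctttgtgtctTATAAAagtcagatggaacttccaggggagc
TATAAA begins 32 bases before the start of Ccl8 and 31 bases before that of Ccl12, and 12.4% of 32851 RefSeq promoters of this length hold it. On both strands, neither sequence holds the interferon motifs TTCNNNGAA (GAS, in 7.02% of promoters) or GAAA, any 2 bases, GAAA (ISRE, in 2.98%), CCAAT (in 33.8%), or the AP-1 motif TGANTCA (in 6.75%). This says only that these letters are not in these windows.

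Reactions 1 and 2 held 37774 and 27582 barcodes, of which 33762 and 23332 passed the quality limits. Of these, 18105 and 14926 had exactly 1 hashtag and were kept, 7988 and 3534 had none, and 7669 and 4872 had several. Kept cells were uneven by treatment. Isotype had 9161 and 9475 cells and CPI 1983 and 1135. CPI + ABT-317 had 3037 and 2065, and isotype + ABT-317 had 3924 and 2251. The reactions share 1416 barcodes, 388 of them kept in both. Depth went with treatment: median UMIs (unique molecular identifiers, each marking 1 captured RNA molecule) per cell were 5431 and 7621 for isotype, 2831 and 3256 for CPI, 16988 and 23040 for CPI + ABT-317, and 16692.5 and 24066 for isotype + ABT-317. The cells fell into 39 clusters, of which 23 were placed in 12 classes by their markers. C1q-high macrophage–like cells (7859 in 11 clusters) were mostly from isotype tumors and had only 41 and 19 cells from CPI. Fibroblast-like cells (1738) and monocyte-like cells (612) came mostly from CPI. The largest set (18986 cells in 10 clusters) was low in Ptprc, which encodes CD45, and is called unnamed Ptprc-low cells. Of these clusters, cluster 2 had 6 fibroblast markers raised but was left unnamed because many of them lay far below their level in the strongest cluster, and the others met no marker list. Krt8, Krt18, and Epcam had 44, 1, and 10 UMIs in all these cells, at most 0.111 CPM in a reaction. A further 1420 cells in 6 Ptprc-high clusters also stayed unnamed.

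**Figure D1:**
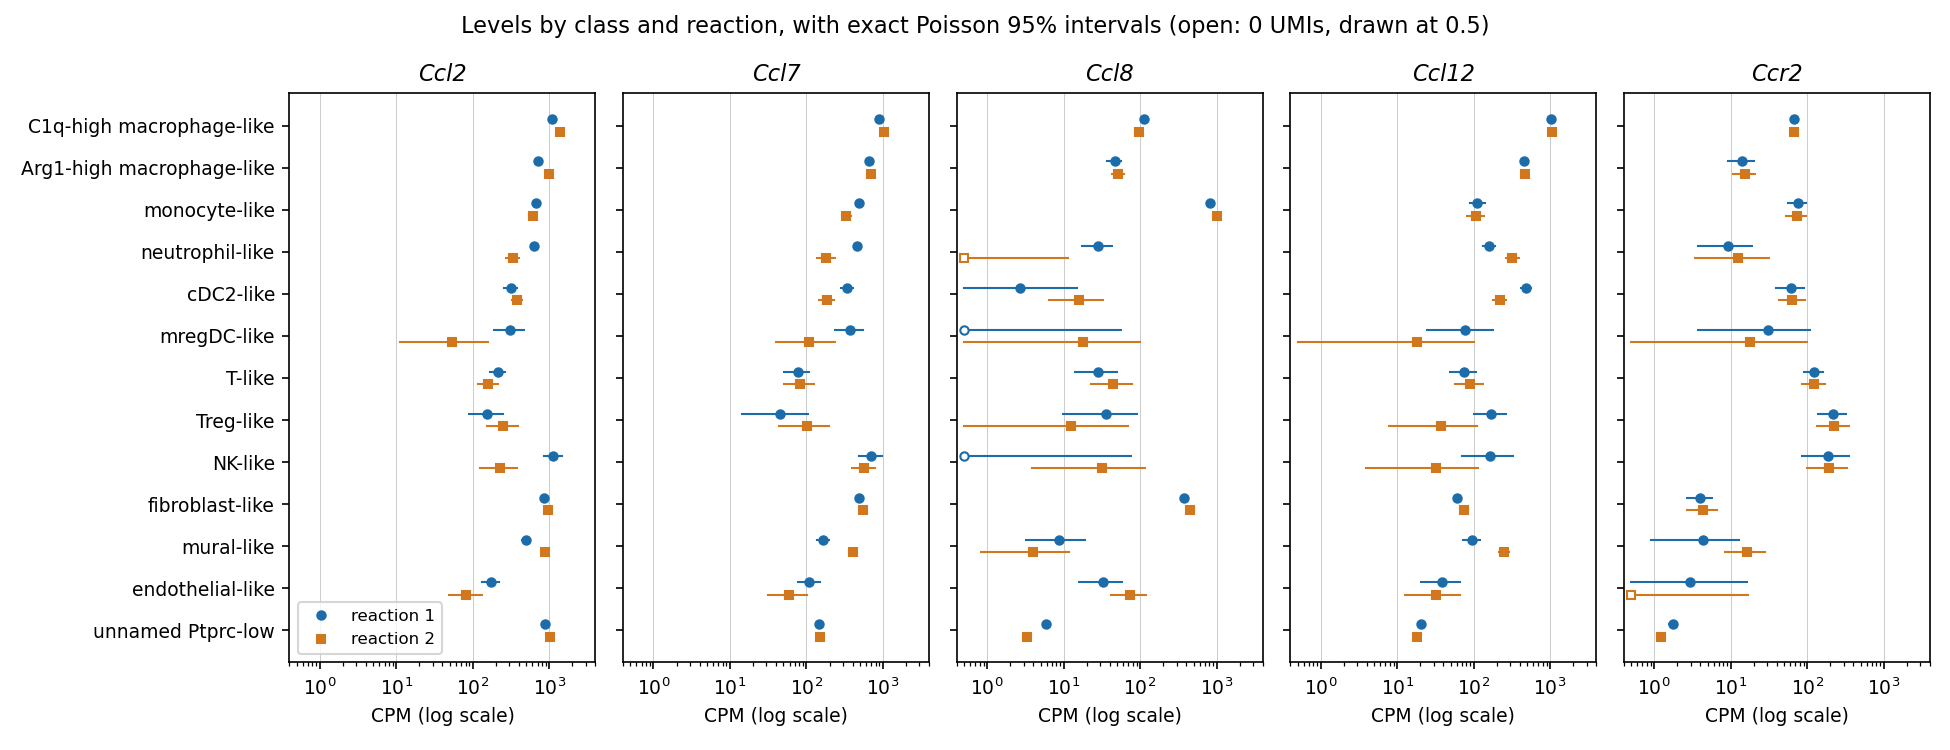
Level of each gene (CPM, log axis) by cell class, with 1 point per reaction and open points at 0 UMIs drawn at the left edge. Bars are exact 95% Poisson intervals, which cover counting error only; all treatments are pooled, and Ccl8 is then highest in monocyte-like (811 and 1029) and fibroblast-like (376 and 449) cells, which came mostly from CPI tumors, while Ccr2 is highest in Treg-like cells (215 and 226).

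Ccl2 had UMIs in every class. Its level, as the gene's share of all UMIs summed over a class on the CPM scale, was 1084 and 1363 in reactions 1 and 2 in C1q-high macrophage–like cells (1223 ± 197, SD, n = 2 reactions), the highest mean among named classes. NK-like cells, 24 in all, were higher in reaction 1 (1115) but not in reaction 2 (223). Ccl2 was 864 and 1009 in unnamed Ptprc-low cells, 838 and 949 in fibroblast-like cells, and 714 and 980 in Arg1-high macrophage–like cells. With treatments pooled, C1q-high macrophage–like cells lay above these 3 in both reactions, and the ranges of these 3 overlap, so their order is not resolved. These levels pool treatments that make up different shares of each class, and the order did not hold within CPI, where Ccl2 was 723 and 448 in C1q-high macrophage–like cells, 811 and 969 in fibroblast-like cells, and 626 and 1034 in unnamed Ptprc-low cells. The lowest mean over reactions was in endothelial-like cells, at 171 and 82.1, but Treg-like cells were lower in reaction 1 (152) and mregDC-like cells in reaction 2 (54.0). With all cells thinned to 1500 UMIs, and the shallower ones left out (886 of 7859 C1q-high macrophage–like cells, 330 of 471 T-like cells, and 41 of 90 Treg-like cells), a Ccl2 UMI was found in 52.3% of C1q-high macrophage–like cells and 43.1% of unnamed Ptprc-low cells. Unthinned, the shares were 65.7% and 75.5%, at median depths of 3450 and 19741.5 UMIs. As a background, T-like cells, which are not known as a main source of these ligands, had a UMI in 22.7% of thinned cells for Ccl2, 7.80% for Ccl7, 6.38% for Ccl12, and 2.13% for Ccl8 (20.6%, 8.70%, 7.43%, and 2.34% unthinned, at a median depth of 1195 UMIs), and shares at or below these are read as background, not as expression. Among clusters the highest Ccl2 level was in cluster 16 of the C1q-high class, led by Ifnb1 and Atf3, at 1914 and 2717 CPM. Cluster 3 of the unnamed Ptprc-low cells, led by cell cycle genes such as Ube2c and Cdk1, was second by the mean over reactions, at 1560 and 1935, with cluster 23 above it in reaction 1 (1669 and 1663).

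Ccl7 followed Ccl2 closely. Its level in C1q-high macrophage–like cells was 875 and 1029 CPM (952 ± 109), above 653 and 701 in Arg1-high macrophage–like cells and 481 and 553 in fibroblast-like cells, with treatments pooled. Within CPI, C1q-high macrophage–like (450.2 and 732) and fibroblast-like cells (548 and 666) overlapped. In unnamed Ptprc-low cells it was 145 and 151, with the highest of these clusters, cluster 2 (led by H19, Cilp, and Dcn), at 264 and 275. Over the 12 named classes Ccl7 was, of 8305 genes compared, the one whose log2 level ran most like that of Ccl2 (Pearson's r = 0.91), ahead of Lrp1 (0.84) and Dtnbp1 (0.82). For Ccl7, P2ry10b (0.85) was among the nearest after Ccl2. These correlations are descriptions over classes of the same 2 libraries. Ccl2 and Ccl7 UMIs were also found in the same cells. Of thinned C1q-high macrophage–like cells in reaction 1, 51.1% of those with a Ccl2 UMI held Ccl7, against 21.6% of those without, and in reaction 2 these shares were 52.9% and 18.3%. For Ccl8 the shares with and without a Ccl2 UMI were close, at 7.36% and 6.96% in reaction 1 and 5.32% and 5.91% in reaction 2.

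Ccl12 was narrower. Its level was 1034 and 1058 CPM (1046 ± 17.1) in C1q-high macrophage–like cells, 462 and 469 in Arg1-high macrophage–like cells, 112 and 107 in monocyte-like cells, and 20.8 and 18.2 in unnamed Ptprc-low cells. C1q-high macrophage–like cells held 63.5% of all its UMIs with 23.8% of the cells and 6.54% of the UMIs of all genes. For Ccl2 they held 8.51%, and unnamed Ptprc-low cells held 86.1% of Ccl2 with 87.3% of the UMIs of all genes. Among all clusters the highest was cluster 27, an unnamed Ptprc-high cluster led by the interferon-response genes Mx1 and Ifit2, at 3374 and 3242 CPM. It had 9 C1q-high macrophage markers raised but stayed unnamed, being shallow (median 3236 UMIs) with none of them among its top genes. It held 136 and 181 isotype cells and 0 CPI cells. Cluster 16 was next by the mean over reactions, at 1520 and 1836, with cluster 29 above it in reaction 1 (1645). All unnamed Ptprc-high cells, which hold cluster 27, had 846 and 1388 CPM. A Ccl12 UMI was in 43.6% of thinned C1q-high macrophage–like cells and 3.04% of thinned unnamed Ptprc-low cells (54.9% and 14.4% unthinned), the latter thinned share being below the T-like one. The thinned shares of fibroblast-like (5.34%) and mural-like cells (6.32%), with treatments pooled, were below it too. The genes whose levels ran most like that of Ccl12 over the classes were H3f3b (r = 0.92), the complement gene C1qc (0.87), and the fractalkine receptor gene Cx3cr1 (0.87).

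Ccl8 had a different pattern from the other ligands. Its level was 811 and 1029 CPM (920 ± 154) in monocyte-like cells and 376 and 449 (413 ± 51.5) in fibroblast-like cells, against 112 and 97.8 in C1q-high macrophage–like cells, 46.5 and 51.1 in Arg1-high macrophage–like cells, and 5.84 and 3.33 in unnamed Ptprc-low cells. This order is of pooled treatments and did not hold within them. Within isotype, Ccl8 was 39.3 and 15.96 CPM in monocyte-like cells, below 82.8 and 80.4 in C1q-high macrophage–like cells and 144 and 125 in fibroblast-like cells. Within CPI, monocyte-like cells were at 1082 and 1080.2, fibroblast-like cells at 536 and 654, and C1q-high macrophage–like cells at 478 and 1345, the highest of the 3 in reaction 2. Within the C1q-high class, cluster 28, which is led by Cxcl9, stood at 884 and 890 CPM, and the median cluster was at 54.0. A Ccl8 UMI was in 34.4% of thinned fibroblast-like cells, 14.7% of thinned monocyte-like cells, and 0.97% of thinned unnamed Ptprc-low cells (56.1%, 18.5%, and 5.84% unthinned), the last thinned share being below the T-like one. The nearest genes over the classes were Selenop (r = 0.94), Igf1 (0.86), and Mmp19 (0.85). The monocyte-like name of cluster 22 rests on 6 of the 8 markers of its list. These cells also held a C1q-high marker list at 8156 to 20201 CPM over the 6 treatment sums of 10 or more cells, below the 20672 to 31052 of C1q-high macrophage–like cells, and the monocyte marker Vcan was lower in them than in other cells (33.2 against 152 CPM). Ly6c2, Chil3, and Ifitm6 had a UMI in 9.97%, 5.39%, and 3.27% of them. Within CPI, which gave most of them, the monocyte list was 609 and 583 CPM. It was higher in fibroblast-like (770 and 851) and T-like cells (720 and 978). The C1q-high list was then 17723 and 20201 in them and 21692 and 24237 in C1q-high macrophage–like cells. The monocyte-like name is therefore weakly held.

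The receptor gene Ccr2 had its highest levels in lymphocyte classes. It stood at 215 and 226 CPM (220 ± 7.61) in Treg-like cells, 186 and 191 in NK-like cells (21 UMIs in 24 cells), and 122 and 123 in T-like cells. Monocyte-like cells were at 74.8 and 72.7, C1q-high macrophage–like cells at 68.1 and 66.4, and cDC2-like cells at 61.3 and 64.1. These levels pool treatments too. Ccr2 was 62.7 and 86.0 in monocyte-like cells and 54.6 and 70.8 in C1q-high macrophage–like cells within CPI, 59.9 and 46.8 against 28.5 and 32.5 within CPI + ABT-317, and 183 and 47.9 (the latter 3 UMIs) against 73.3 and 70.6 within isotype. Arg1-high macrophage–like cells were lower, at 13.9 and 15.2, and unnamed Ptprc-low cells were at 1.76 and 1.24. Ccr2 UMIs were in 34.7% of thinned Treg-like cells, 17.0% of T-like cells, 8.40% of C1q-high macrophage–like cells, and 0.36% of unnamed Ptprc-low cells (33.3%, 13.6%, 17.3%, and 2.53% unthinned). The nearest genes were the leukocyte genes Pik3cd, Cd37, and Arhgap15 (r = 0.94 to 0.95). By number of cells, C1q-high macrophage–like cells held 59.2% of all Ccr2 UMIs.

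**Figure D2:**
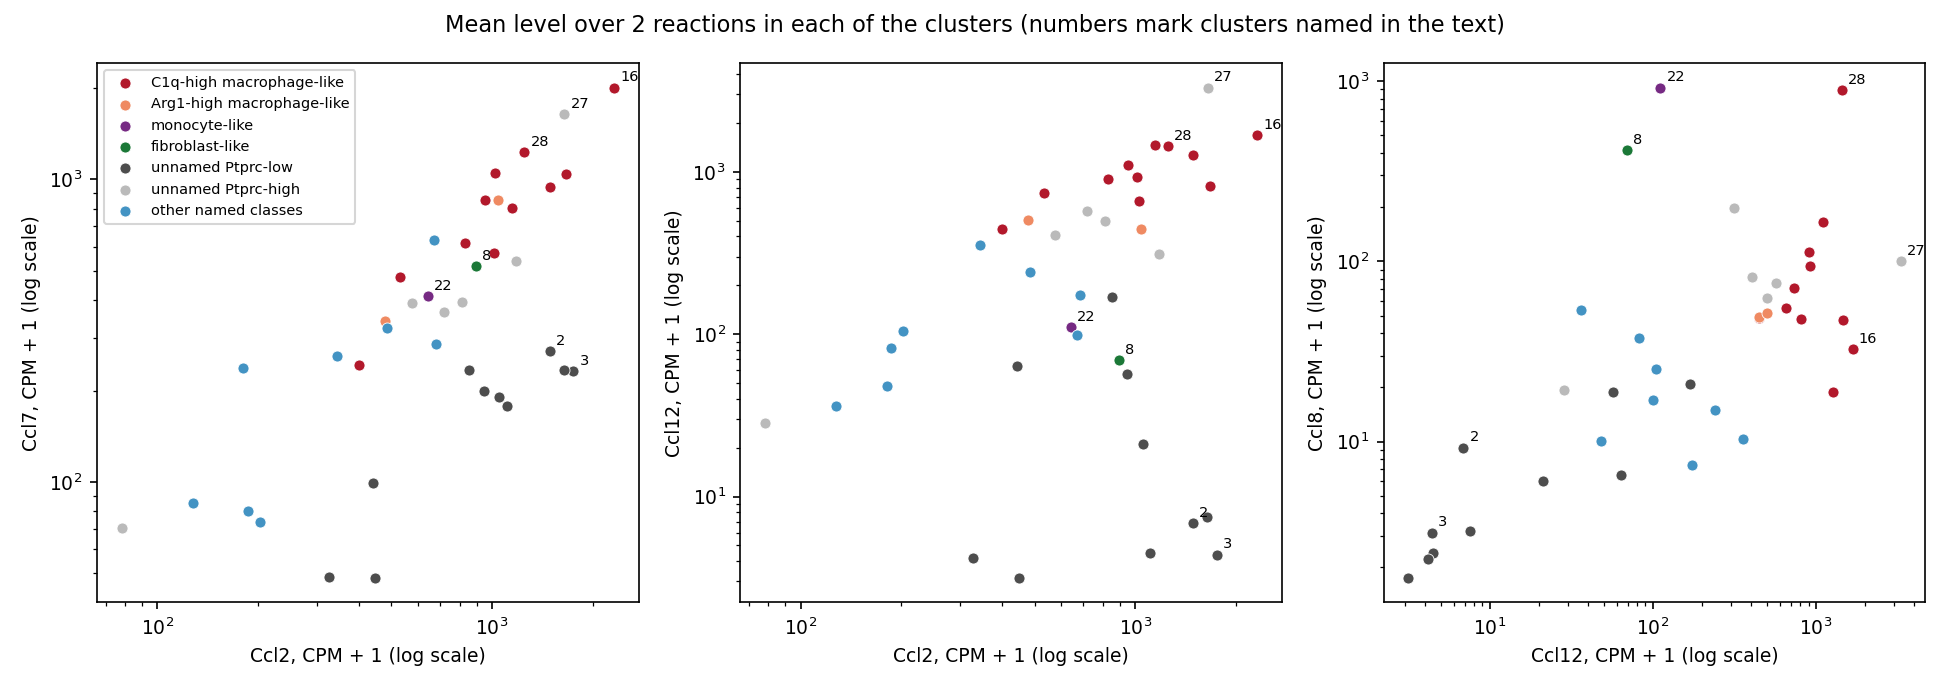
Ccl7 against Ccl2, Ccl12 against Ccl2, and Ccl8 against Ccl12 for each of the 39 clusters (CPM + 1, mean of the 2 reactions, log axes), colored by class with 7 clusters numbered. Cluster 16 has the highest Ccl2 and Ccl7, cluster 27 the highest Ccl12, and clusters 22, 28, and 8 the highest Ccl8.

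Summed over all cells of a treatment, Ccl8 was 339 and 483 CPM after CPI, against 20.7 and 15.5 for isotype, 16.8 and 18.1 for CPI + ABT-317, and 6.46 and 3.36 for isotype + ABT-317. Ccl12 was 190 and 183 for isotype and between 31.8 and 46.3 in the 6 other sums. Ccr2 was 14.2 and 12.0 for isotype, 17.7 in both CPI sums, and between 0.981 and 1.89 with ABT-317. Ccl2 ranged from 674 to 1381 and Ccl7 from 146 to 457 over the 8 sums. The treatments differ in which cells were captured, so these sums mix cell numbers with levels per cell, and the tests below were made within a class.

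Of all classes, only unnamed Ptprc-low cells had the planned 20 cells in each of the 8 sums. Named classes were tested where each sum of the treatments compared had at least 10 cells, a limit chosen after seeing the data. Tests were edgeR's quasi-likelihood test over all genes of a class, with reaction as a term and Benjamini-Hochberg adjusted p, and a gene that passed an adjusted p of 0.05 is said to have risen or fallen. The SE beside a log2 fold change was computed from the test's F value, which uses a spread estimated in part over all genes. It can be narrower than the gene's own difference between reactions.

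**Figure D3:**
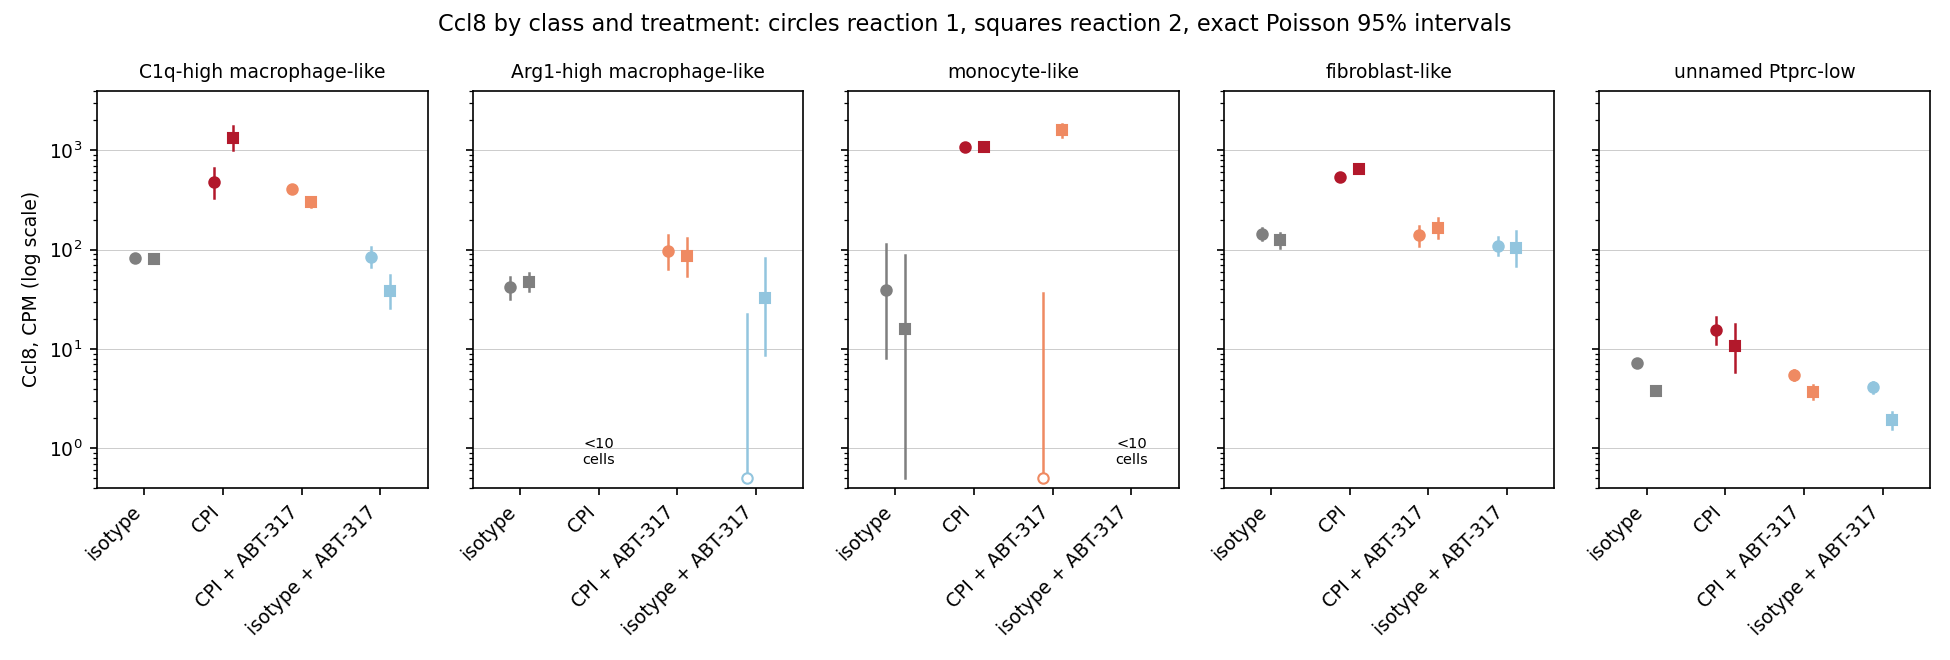
Ccl8 level (CPM, log axis) by treatment in 5 classes, with circles for reaction 1, squares for reaction 2, exact 95% Poisson intervals, and open points for 0 UMIs. CPI points lie above isotype points in the 4 classes that have both, and Arg1-high macrophage–like cells had too few CPI cells to plot.

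CPI versus isotype asks what checkpoint inhibition alone changed. In C1q-high macrophage–like cells Ccl8 rose and the other 3 ligands fell. Ccl8 was 82.8 and 80.4 CPM for isotype and 478 and 1345 for CPI, with no overlap (log2 fold change 2.96 ± 0.22, SE; adjusted p = 4.83e-39). Within reactions 1 and 2 this change was 2.09 and 3.49, further apart than the SE. Ccl12 was 983 and 1064 for isotype and 136 and 401 for CPI, again apart (−2.47 ± 0.25; adjusted p = 4.23e-20). Its change was −3.27 and −1.97 within reactions 1 and 2. Ccl2 was 1023 and 1336 for isotype against 723 and 448 (−1.22 ± 0.19), and Ccl7 827 and 990 against 450 and 732 (−1.01 ± 0.20). Ccr2 was 73.3 and 70.6 for isotype and 54.6 and 70.8 for CPI (−0.57 ± 0.54; adjusted p = 0.65). So 4 of the 5 genes passed, where 6.22% of the 8547 genes tested did, and the median gene of the class had a log2 fold change of −0.27. The 4 calls held under all 19 alternatives run, with log2 fold changes for Ccl8 of 2.04 to 3.69 and for Ccl12 of −3.38 to −0.63.

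These CPI sums rest on 41 and 19 cells. A single cell gave 80.6% of the Ccl7 UMIs of CPI reaction 2, 35.1% of its Ccl8 UMIs, and 47.1% of its Ccl12 UMIs. The clusters that made up the class also differed: cluster 28 was 26.7% of the C1q-high cells from CPI, 24.0% from CPI + ABT-317, 1.98% from isotype, and 2.41% from isotype + ABT-317. Cluster 28 was chosen for leaving out as the C1q-high cluster with the highest Ccl8. Its removal therefore lowers Ccl8 by the choice itself, so Ccl8 values without it cannot separate cluster shares from levels. With cluster 28 left out, Ccl8 was 75.2 and 62.3 CPM for isotype against 464 and 0 for CPI, from 34 and 10 cells, where a count of 0 allows up to 174 CPM. The fit gave 1.74 ± 0.40 (adjusted p = 0.000872), in a fit where 3.53% of genes passed, but the reactions pointed in opposite directions. Ccl12 was lower there too, at 169 CPM in CPI reaction 1 and 0 in reaction 2, which also allows up to 174 CPM, against 968 and 1047 for isotype.

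Other genes of the axis and of JAK signaling were counted from lists of 21 and 8 genes. Of 12 axis genes tested in C1q-high macrophage–like cells, 2 rose, Ccl5 (1.39 ± 0.17) and Ccl6 (2.38 ± 0.32), and 4 fell, the chemokine genes Ccl3 (−2.05 ± 0.20) and Ccl4 (−2.03 ± 0.13), Cx3cr1 (−1.89 ± 0.33), and Il1b (−1.08 ± 0.16). Among the 8 JAK response genes, those that rose included Irf1 (2.10), Gbp4 (3.36), and Gbp2 (1.72), and Cxcl10 (−1.29) fell. The median log2 fold change was −0.81 for the axis list and 0.91 for the JAK response list. Without cluster 28, the JAK response median turned to −1.93, the 2 of its 8 genes that passed were Cxcl9 (−4.34) and Cxcl10 (−2.16), both lower, and the axis median was −0.76. The smallest sum in that fit held 10 cells, and the median over all its genes was −0.42. Cluster 28 is led by Cxcl9, itself on the JAK response list, and was 26.7% of the CPI cells and 1.98% of the isotype cells. Its removal lowers such genes in CPI by the choice itself, so these values cannot separate cluster shares from levels.

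In fibroblast-like cells CPI gave the same pair of directions for Ccl8 and Ccl12. With treatments pooled, the thinned Ccl12 share in these cells was 5.34%, below the T-like 6.38%, so it is read as background. Unthinned, a Ccl12 UMI was in 27.1% and 31.2% of isotype cells and 10.6% and 4.66% of CPI cells. Ccl8 was 144 and 125 CPM for isotype and 536 and 654 for CPI (2.15 ± 0.17; adjusted p = 1.64e-06), on 133 and 93 isotype and 846 and 515 CPI cells. Ccl12 was 172 and 287 for isotype and 31.8 and 10.0 for CPI (−3.46 ± 0.39; adjusted p = 2.56e-05). Ccl2 (691 and 1019 against 811 and 969) and Ccl7 (390 and 514 against 548 and 666) did not pass. This was 2 of 4 genes tested, beside 27.9% of all genes. Both calls held under all 19 alternatives. Ccl11, the eotaxin gene between Ccl7 and Ccl12, also rose (1.66 ± 0.18), one of 2 axis genes that did, with Ackr1 (1.08 ± 0.34), while 8 of 14 fell, among them Tnf (−3.69 ± 0.31) and Ccl3 (−3.45 ± 0.38). A list of 9 C1q-high macrophage markers moved with Ccl12 in these cells, at 3954 and 6014 CPM for isotype and 964 and 805 for CPI, with all 9 present in each of these 4 sums. For each 1000 UMIs of that list, fibroblast-like cells had 43.5 and 47.6 Ccl12 UMIs for isotype and 32.9 and 12.4 for CPI. C1q-high macrophage–like cells had 38.4 and 34.3 for isotype and 6.29 and 16.6 for CPI. Its part in the fall of Ccl12 was not tested. Ccl8 moved against that list and with the fibroblast marker list, which was 21878 and 24769 CPM for isotype and 68184 and 83306 for CPI. For each 1000 UMIs of the fibroblast list there were 6.57 and 5.04 Ccl8 UMIs for isotype and 7.87 and 7.85 for CPI, and 4.64 to 7.87 over the 8 sums. The monocyte marker list rose with Ccl8 too, from 415 and 429 to 770 and 851 CPM. The part of these lists in the rise of Ccl8 was not tested.

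In monocyte-like cells Ccl8 was 39.3 and 15.96 CPM for isotype, which is 3 and 1 UMIs, and 1082 and 1080.2 for CPI (5.48 ± 1.21; adjusted p = 0.00724). Ccl8 was the 1 gene of 4 to pass, beside 13.5% of all genes. Its isotype counts were too low to keep it for testing on their own, so the size of the change is not resolved. A UMI was in 3 of 30 and 1 of 29 isotype cells and in 74 of 287 and 31 of 193 CPI cells. The class's own markers moved too: the monocyte list was 1283 and 2075 CPM for isotype and 609 and 583 for CPI, and the C1q-high list 14764 and 8156 for isotype and 17723 and 20201 for CPI. Their part in the Ccl8 change was not tested. The call was lost with DESeq2 (adjusted p = 0.426) and with cells of high UMI counts left out. Ccl2, at 903 and 1021 for isotype and 607 and 540 for CPI, missed the threshold (−0.69 ± 0.22; adjusted p = 0.0515). Il1b (−1.86 ± 0.13), Ccl3, Ccl4, and Tnf fell and Ccl6 (2.07 ± 0.38) rose among 10 axis genes, and the 5 JAK response genes tested had a median of 0.07.

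Mural-like cells, the contractile cells around vessels, had lower ligand levels after CPI. Ccl12 went from 360 and 504 CPM to 20.1 and 7.54 (−4.89 ± 0.37), Ccl7 fell by 1.75 ± 0.27, and Ccl2 from 772 and 1165 to 351 and 294 (−1.64 ± 0.22), so that 3 of 3 passed beside 7.47% of all genes, the Ccl2 call being lost in 2 of 10 alternatives. A Ccl12 UMI was in 8 of 21 and 14 of 35 isotype cells and in only 4 of 82 and 1 of 51 CPI cells, so the size of its fall is not resolved. Its CPI counts were too low to keep it for testing on their own, so Ccl12 entered the test through the isotype sums, where it was high. With treatments pooled, and most of these cells from CPI, the thinned Ccl12 share of 6.32% was below the T-like one. The pooled share is read as background, but it does not describe isotype cells. The C1q-high marker list moved with these ligands, from 6415 and 5520 to 1248 and 539 CPM, and its part was not tested. In T-like cells Ccl7 passed (−2.08 ± 0.57), 1 of 4 genes beside 2.7%, but in 6 of 8 alternatives it did not. The C1q-high marker list went from 2695 and 9804 to 1522 and 1082 CPM in these cells.

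In unnamed Ptprc-low cells Ccl8 rose from 7.24 and 3.81 to 15.4 and 10.7 CPM (0.98 ± 0.23), Ccl7 rose (0.24 ± 0.08), and Ccl2 fell (−0.35 ± 0.08), which is 3 of 5 genes beside 21% of all genes. With treatments pooled, the thinned Ccl8 share of this class (0.97%) was below the T-like one, so its Ccl8 is read as background. A Ccl8 UMI was in 306 of 4396 and 265 of 4702 isotype cells and in 38 of 282 and 13 of 103 CPI cells. Ccl2 was 836 and 910.5 CPM for isotype and 626 and 1034 for CPI, so by CPM it was higher in reaction 2, and after normalization it was −0.68 and −0.09 within reactions 1 and 2. The T marker list went from 2.46 and 2.69 CPM for isotype to 65.7 and 71.8 for CPI in these cells, and its part was not tested. The 3 calls were lost with reaction not a term and under the gene ceiling of the methods (fewer than 2500 genes per cell), where Ccl7 pointed down (−0.55). The clusters of these cells had different shares by treatment: cluster 32 was 14.8% of the CPI cells and 0.66% of the isotype cells, and cluster 2 was 3.38% and 17.6%. Within clusters the values differed from those of the class. The log2 fold change of Ccl2 was −2.42 ± 0.19 in cluster 1, −0.09 ± 0.13 in cluster 6, and −0.69 ± 0.21 in cluster 7. That of Ccl7 was −0.75 ± 0.30, 0.19 ± 0.14, and −0.47 ± 0.26. Ccl12 was 0.78 ± 0.20 in cluster 6 (adjusted p = 0.0226) and −1.01 ± 0.32 in cluster 7 (adjusted p = 0.0438), in opposite directions, and Ccl8 was 1.24 ± 0.32 in cluster 6 (adjusted p = 0.0236) and 1.11 ± 0.59 in cluster 7 (adjusted p = 0.391). Of all genes, 490 of 12657 passed in cluster 1, 151 of 10582 in cluster 6, and 299 of 8894 in cluster 7.

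**Figure D4:**
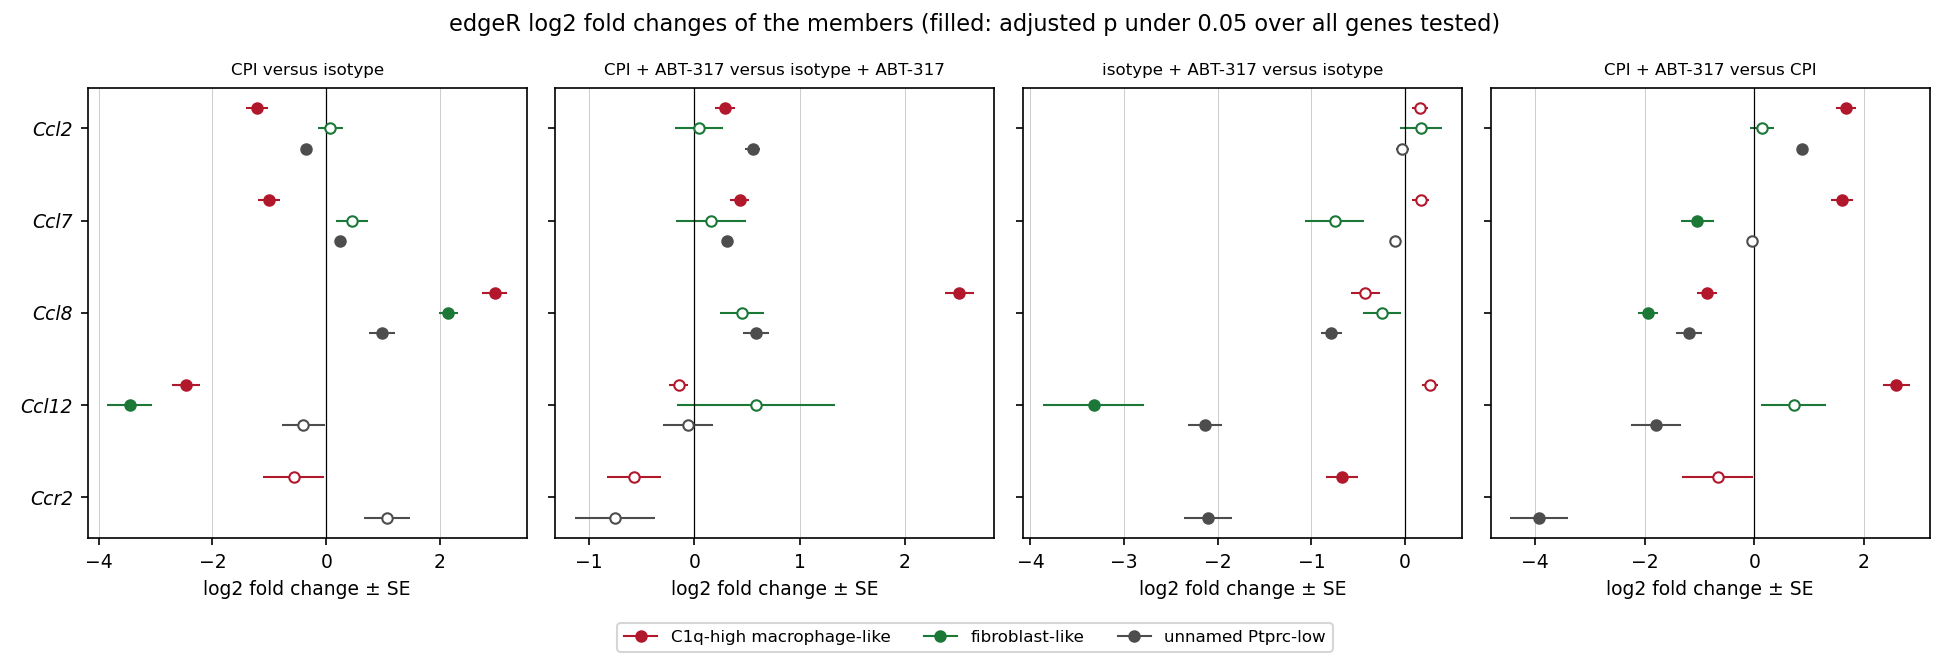
Log2 fold change (x axis, ± SE) of each gene in C1q-high macrophage–like, fibroblast-like, and unnamed Ptprc-low cells, with 1 panel for each of 4 contrasts, filled where the adjusted p over all genes tested is below 0.05. For C1q-high macrophage–like cells Ccl2, Ccl7, and Ccl12 are left of 0 for CPI versus isotype and right of 0 for CPI + ABT-317 versus CPI.

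CPI + ABT-317 versus CPI asks what JAK1 inhibition changed on top of CPI. The contrast shares the CPI sums with the one above. Among C1q-high macrophage–like cells Ccl12 was 1359 and 909.9 CPM with CPI + ABT-317 (2.59 ± 0.25; adjusted p = 1.26e-21), above both CPI sums. Ccl2 was 1593 and 1639.7 (1.67 ± 0.19) and Ccl7 1358 and 1395 (1.60 ± 0.19), also above both. Ccl8 was 408 and 299 (−0.86 ± 0.19; adjusted p = 0.000274), but it was not lower in reaction 1, where the log2 fold change was 0.13, and without the CPI sum of reaction 2 it was 0.048. With cluster 28, itself chosen by its Ccl8, left out, Ccl8 did not pass (−0.74 ± 0.38; adjusted p = 0.394). These are 4 of 5 genes beside 4.11%, with the median gene at 0.28. Ccr2 was 28.5 and 32.5 (−0.67 ± 0.64; adjusted p = 0.68). The calls for Ccl2, Ccl7, and Ccl12 held under all 19 alternatives. Of 12 axis genes 4 rose, Ccl3, Ccl4, Il1b, and Cx3cr1, and 2 fell, Ccl5 and Ccl6.

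In fibroblast-like cells Ccl8 was 139 and 166 CPM with CPI + ABT-317, on 43 and 27 cells (−1.94 ± 0.18; adjusted p = 5.35e-06), and Ccl7 was 397 and 197 (−1.04 ± 0.30; adjusted p = 0.0208). These were 2 of 4 genes beside 27.1% of all genes. The Ccl8 call was lost in 2 of 18 alternatives, at −0.50 without cells of high UMI counts and −0.69 with the other hashtag fit, and the Ccl7 call in 5 of 18. Ccl11 fell in the same contrast (−1.78 ± 0.21), and Ccl12, at 54.3 and 12.6, did not pass (0.72 ± 0.59). The fibroblast marker list moved with Ccl8 here, at 24873 and 27883 CPM.

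In monocyte-like cells Ccl2 (349 and 281 CPM; −0.88 ± 0.24) and Ccl7 (−1.45 ± 0.37) fell, 2 of 4 genes beside 14.6%. The Ccl2 call was lost in 8 of 17 alternatives and turned direction in 1 more (0.12, with the hashtag taken by its lead over the next), and the Ccl7 call was lost in 4 of 17. The monocyte marker list went from 609 and 583 CPM for CPI to 1417 and 1123, and its part in these changes was not tested. Ccl8 in monocyte-like cells was 0 and 1591 CPM with CPI + ABT-317. In reaction 1 none of 29 cells had a UMI, a count that allows up to 29.9 CPM, and in reaction 2 the UMIs were in 4 of 38 cells, 40% of them in 1 cell, so the groups overlap (−1.02 ± 0.71). Of 5 JAK response genes 4 rose in this contrast, among them Gbp2 (2.00), Cxcl9 (1.81), and Irf1 (0.87). Among unnamed Ptprc-low cells 4 of 5 genes passed beside 19.7%. Ccl2 rose from 626 and 1034 to 1080 and 1385 CPM (0.88 ± 0.08), and Ccl8 (−1.19 ± 0.24), Ccl12 (−1.80 ± 0.46), and Ccr2 (−3.93 ± 0.52) fell, the C1q-high marker list falling with them from 987 and 783 to 264 and 108 CPM. The T marker list fell as well, from 65.7 and 71.8 to 2.28 and 1.30 CPM, and the part of either list was not tested. With reaction not a term, 1 passed. Ccl12 UMIs per 1000 list UMIs stayed between 32.9 and 46.6 in the 8 sums of these cells. By their thinned shares with treatments pooled, Ccl8 and Ccl12 are read as background in this class.

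Clusters 1, 6, and 7 of the unnamed Ptprc-low cells were tested on their own, since cluster shares differed between CPI and CPI + ABT-317 (8.31% and 26.5% for cluster 1, 27.8% and 6.28% for cluster 6, and 19.0% and 3.21% for cluster 7). No other cluster of these cells had at least 10 cells in each of the 8 sums. In cluster 1 Ccl2 was 82.5 and 95.5 CPM for CPI, on 20 and 12 cells, and 517 and 582 for CPI + ABT-317 (2.72 ± 0.18, in a fit where 2.66% of genes passed). It rose by less in cluster 6 (0.73 ± 0.13, 1.48% of genes) and in cluster 7 (1.61 ± 0.21, 3.52% of genes). In cluster 7, 2 of 5 genes passed, Ccl2 and Ccl7, though Ccl7 did not pass in the class. In cluster 1, 2 of 4 genes passed, Ccl2 among them. The falls of Ccl8, Ccl12, and Ccr2 seen in the class were not seen in each cluster. Ccr2 did not pass in cluster 6 (−1.76 ± 0.64; adjusted p = 0.216) or cluster 7 (−1.98 ± 1.53; adjusted p = 0.637, with the reactions in opposite directions). Ccl8 was −1.06 ± 0.34 in cluster 6 and 1.31 ± 0.48 in cluster 7, neither past the threshold, and in cluster 1 it had no UMI in either CPI sum. Ccl12 fell in cluster 6 (−0.96 ± 0.22) and was 0.65 ± 0.34 in cluster 7, and the CPI sums of cluster 1 held 1 and 0 Ccl12 UMIs.

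Isotype + ABT-317 versus isotype asks what JAK1 inhibition changed without CPI. In C1q-high macrophage–like cells no ligand passed edgeR's test: Ccl12 was 1362 and 1219.6 CPM (0.27 ± 0.09; adjusted p = 0.122), Ccl2 1262 and 1477 (0.16 ± 0.09), Ccl7 923 and 1209 (0.17 ± 0.09), and Ccl8 85.0 and 38.7 (−0.43 ± 0.16; adjusted p = 0.231). Ccr2 fell from 73.3 and 70.6 to 51.9 and 41.4 (−0.67 ± 0.17; adjusted p = 0.0146), so 1 of 5 passed beside 1.1% of all genes. Without cluster 28 Ccl12 passed (0.28 ± 0.08; adjusted p = 0.0414), in a fit where 97 of 7903 genes did. The Ccr2 call was lost in 6 of 19 alternatives, among them the fit without reaction as a term. In Arg1-high macrophage–like cells Ccl12 rose from 421 and 415 to 829 and 1049.9 (1.11 ± 0.16; adjusted p = 9.37e-09), though 1 of 29 cells gave 60.8% of the Ccl12 UMIs of isotype + ABT-317 reaction 2, where 34.5% of cells had a UMI against 34.4% for isotype. In reaction 1 these shares were 48.8% and 36.1%, and 1 of 43 cells gave 20% of the UMIs. Ccl7 passed narrowly (−0.60 ± 0.17; adjusted p = 0.0494, lost in 14 of 17 alternatives), 2 of 4 beside 1.46%. Il1b (−0.98), Ccl3 (−0.91), Tnf (−0.86), and Ccl4 (−0.73) fell and Ccl9 (1.03) rose in those cells. In fibroblast-like cells Ccl12 fell from 172 and 287 to 28 and 11.7 (−3.33 ± 0.54; adjusted p = 0.00382), 1 of 4 beside 4.13%, where the C1q-high marker list was 433 and 541 CPM and the reaction 2 value is 3 UMIs in 1 of 14 cells. In unnamed Ptprc-low cells Ccl12 (−2.14 ± 0.18), Ccr2 (−2.10 ± 0.25), and Ccl8 (−0.79 ± 0.11) fell, 3 of 5 beside 27.5%, with the list at 245 and 99.1 CPM. By their thinned shares with treatments pooled, Ccl8 and Ccl12 are read as background in this class. With reaction not a term, the 3 calls were lost. They were not seen within clusters 1, 6, and 7, the only ones tested, where adjusted p was 0.414 or more for these genes. In cluster 1, 2 of 4 genes passed, neither of them Ccl8 or Ccl12, where 703 of 12657 genes did. Ccl12 was −0.15 ± 0.23, −0.19 ± 0.14, and −0.09 ± 0.15 in clusters 1, 6, and 7, Ccr2 was −0.46 ± 0.41 and −0.40 ± 0.41 in clusters 6 and 7, and Ccl8 was 0.67 ± 0.41, 0.28 ± 0.22, and −0.94 ± 0.37 (unadjusted p = 0.011 in cluster 7). Cluster 7, whose Ccl12 level for isotype was 153 and 192 CPM, was 15.7% of the isotype cells and 2.28% of the isotype + ABT-317 cells.

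CPI + ABT-317 versus isotype + ABT-317 gives the effect of CPI with the inhibitor present. It shares no sum with CPI versus isotype. In C1q-high macrophage–like cells Ccl8 rose here too, from 85.0 and 38.7 to 408 and 299 CPM (2.52 ± 0.14; adjusted p = 4.78e-66), from 279 and 251 cells, and it held under all 19 alternatives (1.35 to 3.22). Ccl7 (0.43 ± 0.09) and Ccl2 (0.29 ± 0.09) also passed, 3 of 5 beside 5.28%, but Ccl2 was lost in 9 of 19 alternatives and Ccl7 in 4, the fit without reaction as a term among both. Without cluster 28, Ccl8 was 153 and 128 CPM against 79.4 and 39.9 (1.24 ± 0.19; adjusted p = 8.97e-09), beside 3.95% of genes. Cluster 28 was chosen by its Ccl8, so these levels are lowered by the choice. Of the JAK response genes 6 of 8 rose, among them Gbp4 (2.84), Socs1 (2.49), Cxcl9 (2.06), Gbp2 (1.65), and Irf1 (1.33), where 1 of 12 axis genes, Ccl4 (−0.49), passed. In Arg1-high macrophage–like cells Ccl8 was 97.0 and 87.2 CPM against 0 (which allows up to 18.4) and 32.3 (2.74 ± 0.63), Ccl7 rose (0.74 ± 0.19), and Ccl12 fell (−0.73 ± 0.17), 3 of 4 beside 5.02%. These calls were lost in 4 of 16 alternatives for Ccl8, 9 of 17 for Ccl7, and 6 of 17 for Ccl12, and 1 cell gave 49.1% of the Ccl12 UMIs of CPI + ABT-317 reaction 2. In fibroblast-like cells none of the 4 passed edgeR's test, beside 0.185% of all genes and 0 of 4 at an unadjusted p of 0.05 or with DESeq2, with Ccl8 at 139 and 166 against 110 and 105 (0.45 ± 0.21; unadjusted p = 0.0523). For unnamed Ptprc-low cells Ccl2 (0.56 ± 0.07), Ccl8 (0.58 ± 0.13), and Ccl7 (0.31 ± 0.05) rose, 3 of 5 beside 21.4%, and these calls were lost with reaction not a term. By its thinned share with treatments pooled, Ccl8 is read as background in this class. Within clusters Ccl8 was −0.74 ± 0.42 in cluster 1, −0.11 ± 0.26 in cluster 6, and 3.37 ± 0.34 in cluster 7, so the class value stands for none of them, while Ccl2 (0.46, 0.37, and 1.06) and Ccl7 (0.78, 0.63, and 0.62) were above 0 in each.

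The interaction term tests whether ABT-317 acted differently with and without CPI. In C1q-high macrophage–like cells it was positive for Ccl2 (1.51 ± 0.21), Ccl7 (1.43 ± 0.22), and Ccl12 (2.32 ± 0.28), and was −0.44 ± 0.24 for Ccl8 (adjusted p = 0.415), 3 of 5 beside 3.76%, with the median gene at 0.31. Without cluster 28 the term was 2.00 ± 0.26 for Ccl2, 1.87 ± 0.28 for Ccl7, and 3.37 ± 0.40 for Ccl12. In that fit 252 of 7903 genes passed and the median gene was at 0.46. In fibroblast-like cells the term was negative for Ccl8 (−1.69 ± 0.27) and positive for Ccl12 (4.04 ± 0.87), 2 of 4 beside 4.7%. The Ccl12 term rests on few cells with a UMI, 8 of 43 and 3 of 27 for CPI + ABT-317. For isotype + ABT-317 they were 9 of 67 and 1 of 14. In unnamed Ptprc-low cells the term was 0.91 ± 0.11 for Ccl2 and −1.82 ± 0.55 for Ccr2, 2 of 5 beside 12.1%, and neither passed with reaction not a term. Within clusters it passed for 2 of 4 genes in cluster 1 (273 of 12657 over all genes) and 0 of 5 in cluster 6 (12 of 10582). In cluster 7 it passed for 3 of 5 (75 of 8894), so the class does not stand for each cluster. The difference between C1q-high macrophage–like and fibroblast-like cells in the Ccl8 term was not tested.

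**Figure D5:**
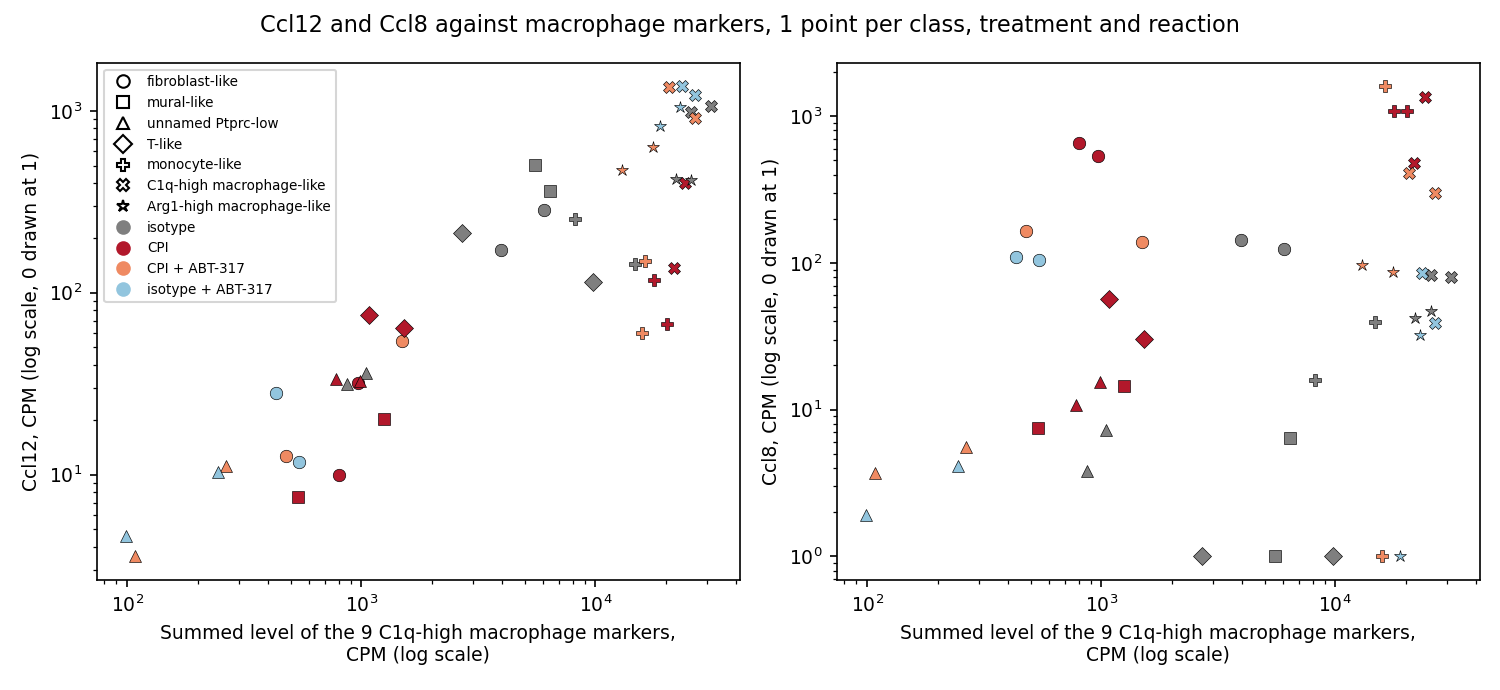
Ccl12 (left) and Ccl8 (right) level against the summed level of 9 C1q-high macrophage markers (CPM, log axes, 0 drawn at 1), with 1 point per class, treatment, and reaction in 7 classes. Ccl12 runs along the marker level in unnamed Ptprc-low cells (3.54 to 36.4 CPM), while Ccl8 in fibroblast-like cells after CPI stands high (536 and 654) at a low level of these markers (964 and 805) and a high level of fibroblast markers (68184 and 83306, not drawn).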

How the data were processed

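Gene counts (UMIs) per cell were deposited by the authors as 10x 5′ scRNA-Seq matrices of 2 pooled MC38 reactions, with hashtag counts beside them. The matrix headers name Cell Ranger 8.0.1, the submitters' processing notes Cell Ranger 3.1.0 and GRCm38. Cells with at least 200 genes, under 10% mitochondrial counts, and exactly 1 hashtag (2-component fit to log counts, chosen after seeing the hashtag counts) were kept. No doublet caller was run beyond leaving out cells with several hashtags. Cells were clustered with leidenalg 0.10.2 on 2000 variable genes and named by marker lists. Counts were summed by class, treatment, and reaction, and edgeR 4.0.16 (R 4.3.3) was fitted to all genes passing its filter, with reaction as a term since a reaction is a shared library. DESeq2 1.42.0, other filters, hashtag rules, and left-out sums were alternatives. The fit was tested on simulated data. All 5 genes were named by rule, and list genes where they passed, except some that are not reported here. The genes and lists were chosen with earlier results of these data known. Deviations of same-reaction sums correlated at 0.0484 to 0.452 in C1q-high macrophage–like cells. Lymph node data were not analysed here.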

Additional observations from a re-analysis of the deposited data

Results flagged for a closer look

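In these results the interaction term of the edgeR fit, which sets ABT-317 with CPI against ABT-317 without it, passed for the genes below. For C1q-high macrophage–like cells the term was 1.51 for Ccl2, 1.43 for Ccl7, and 2.32 for Ccl12 (log2), each resting on CPI sums of 41 and 19 cells, and the Ccl12 term was lost in 1 of 19 alternatives (0.50). Cluster 28 was 26.7% of these cells for CPI, 24.0% for CPI + ABT-317, 1.98% for isotype, and 2.41% for isotype + ABT-317. Without it the term was 2.00 for Ccl2, 1.87 for Ccl7, and 3.37 for Ccl12. In fibroblast-like cells it was −1.69 for Ccl8 (lost in 1 of 16 alternatives, at most −0.22) and 4.04 for Ccl12 (lost in 3 of 16, 0.86 to 5.57), the latter beside a C1q-high marker list that also differed between the sums, and the former beside the fibroblast marker list, at 21878 and 24769 CPM for isotype, 68184 and 83306 for CPI, and 24873 and 27883 for CPI + ABT-317. There were 4.64 to 7.87 Ccl8 UMIs per 1000 UMIs of that list in all 8 sums, and the part of either list was not tested. The Ccl12 term rests on low counts outside isotype. A Ccl12 UMI was in 27.1% and 31.2% of fibroblast-like cells for isotype and 10.6% and 4.66% for CPI. It was in 8 of 43 and 3 of 27 for CPI + ABT-317 and 9 of 67 and 1 of 14 for isotype + ABT-317. Among unnamed Ptprc-low cells the term was 0.91 for Ccl2 and −1.82 for Ccr2. Both of these were lost without reaction as a term, and the Ccr2 term was lost in 8 of 19 alternatives and turned direction in 2 more, reaching 1.64.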

How the results depend on the processing

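Of 49 called log2 fold changes, 14 stayed called in the same direction under each alternative run. Over 864 values, 714 stayed called, 140 were no longer called, and 10 turned direction. The cause was not tested. The hashtag fit with own SDs per component, the hashtag lead over its own background, and leaving out barcodes kept in both reactions were chosen after seeing the data, as were the tests of named classes, of CPI + ABT-317 versus isotype + ABT-317, and without cluster 28. The Ccl8 level in its highest class (920 CPM) was 1091 with the hashtag lead rule, 1174 without high-UMI cells, and 754 with the hashtag fit of own SDs. The Ccl12 level in its highest named class (1046), with unnamed Ptprc-high cells not ranked, was 1064 under 5% mitochondrial counts and 977 as a mean over cells. The Ccr2 level in its highest class (220.3) was 235 under 2500 genes, 210.5 with the lead rule, 276 without high-UMI cells, 209.6 under 5% mitochondrial counts, 258 with own SDs, and 257 as a mean over cells.

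Calls in unnamed Ptprc-low cells depended on the replicate block: without it, the count of genes called went from 3 to 0 for CPI versus isotype, from 4 to 1 for CPI + ABT-317 versus CPI, from 3 to 0 for isotype + ABT-317 versus isotype, from 2 to 0 for the interaction, and from 3 to 0 for CPI + ABT-317 versus isotype + ABT-317. In named classes without the block, the count went from 4 to 2 and from 6 to 2 for isotype + ABT-317 versus isotype and CPI + ABT-317 versus isotype + ABT-317.

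For unnamed Ptprc-low cells under 2500 genes per cell these 5 counts were 0, 0, 1, 0, and 0. With own SDs the count was 1 for CPI versus isotype, CPI + ABT-317 versus CPI, and the interaction. With the lead over own background it was 1 for CPI versus isotype, 4 for the interaction, and 5 for CPI + ABT-317 versus isotype + ABT-317. It was 5 for CPI versus isotype with all genes of any count, 2 for CPI + ABT-317 versus CPI with the lead rule, and 1 for the interaction without high-UMI cells and with DESeq2. Leaving out 1 sum gave 1 to 4, 3 to 4, 3 to 5, 1 to 3, and 3 to 4.

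In named classes CPI versus isotype went from 11 to 6 without high-UMI cells. CPI + ABT-317 versus CPI went from 8 to 4 with own SDs, and to 5 with the lead over own background and with DESeq2. Isotype + ABT-317 versus isotype went from 4 to 2 under 2500 genes and with DESeq2, and to 1 without high-UMI cells. The interaction went from 5 to 3 under 2500 genes, with own SDs, and with the lead over own background, and CPI + ABT-317 versus isotype + ABT-317 from 6 to 1 with DESeq2. Leaving out 1 sum gave 11 to 14, 4 to 9, 2 to 4, 4 to 6, and 3 to 6.

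Directions turned for Ccl8 in C1q-high macrophage–like cells (CPI + ABT-317 versus CPI; −1.61 to 0.048 when 1 CPI sum was left out, turning without reaction 2, and 0.13 in reaction 1 alone), Ccl2 in monocyte-like cells (0.12, lead rule), and Ccr2 in unnamed Ptprc-low cells (interaction; 0.61 with the lead rule, 1.64 with own SDs). Under 2500 genes, unnamed Ptprc-low cells gave −0.23 for Ccl2 in CPI + ABT-317 versus CPI, −0.14, −0.18, and −0.17 for Ccl2, Ccl7, and Ccl8 in CPI + ABT-317 versus isotype + ABT-317, −0.55 for Ccl7 in CPI versus isotype, and 0.51 for Ccl8 in isotype + ABT-317 versus isotype. In C1q-high macrophage–like and unnamed Ptprc-low cells the CPI sums hold the fewest cells and UMIs.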
